A study of Mus musculus with 4 samples.

Results

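Exon, UTR and downstream peaks were the H3K27ac regions that the deposited peak table placed in an exon, in a 5′ or 3′ untranslated region (UTR), or within 3 kb past the end of a gene. They were chosen by this class alone, on all chromosomes and for all gene types, and numbered 283 of the 4088 listed peaks. The libraries came from the mESC line Sv129, mouse embryonic stem cells grown with serum either with folate at 4 mg/L (FA4) or in folate-deficient medium at 0 mg/L (FA0). Each condition gave 1 H3K27ac IP library and 1 input library, 4 libraries in all with no replicates, so no test between conditions was possible and no difference had a replicate check. The labels named no genotype, treatment time or clone, and both conditions shared the same cell line. With 1 library of each kind, folate and library cannot be told apart.

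The table compared the FA4 IP with the FA0 IP and listed only regions that were higher in one of them. The order was not stated in the table and was taken from the study's naming of the same promoter peaks alone. The pileups were whole numbers, which does not show which library came first. Every direction here would turn round if the order were reversed. The study's own text describes a slight gain of the mark without folate, which is the opposite direction. The values were the pileup (the number of FA4 fragments over the summit), the fold over the local FA0 background, and the −log10 q of the peak caller, which compares 2 libraries and not 2 conditions. Fewer cells with the mark and less of the mark per cell cannot be told apart in such bulk chromatin. The depth of the libraries was not given in the tables, so the precision of each value came from the fragments of its own peak, and all intervals here are 95% intervals that cover counting error only.

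H3K27ac is acetylation of lysine on histone H3, placed mainly by the acetyltransferases p300 and CBP, and it is found at active promoters and enhancers. Transcribed exons and 3′ UTRs usually carry other marks, so acetylated regions inside a gene body are often read as internal enhancers, as starts of shorter transcripts, or as the spread of a promoter domain into the first kilobases of a gene. Folate feeds the one-carbon cycle that supplies methyl groups and nucleotides, and its lack in early pregnancy is a known risk for neural tube defects.

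Of the 283 peaks, 163 lay in exons, 69 in 3′ UTRs, 9 in 5′ UTRs and 42 downstream of a gene. They made up 6.92% of all listed peaks (exact binomial interval, 6.16 to 7.74%). Among the exon peaks, 141 were in internal exons, 21 in the last exon and 1 in a gene of a single exon. None was in the first exon of a transcript with 2 exons or more. The table gave the promoter class precedence within 3 kb of an annotated start, and the closest exon, UTR or downstream peak lay 3081 bp from the start of its nearest gene, so these regions were by construction clear of the starts in that annotation. The median distance to the nearest start was 8211 bp, against 15327 bp for the 1107 intron peaks. The 42 downstream peaks were spread evenly, with 14 under 1 kb, 14 between 1 and 2 kb and 14 between 2 and 3 kb past a gene end.

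The peaks were small. The median pileup was 12 fragments (interval of the median, 11 to 12), with quartiles of 10 and 15 and a range of 8 to 84. This was close to intron peaks (median 11) and distal intergenic peaks (median 11, 1160 peaks), and well under promoter peaks (median 30, interval 27 to 33, 1538 peaks). The median fold was 3.88 (3.84 to 4.12), with quartiles of 3.46 and 4.61 and a range of 1.63 to 7.86. Intron peaks had a median fold of 3.99 (3.84 to 4.12) and distal intergenic peaks one of 3.85 (3.84 to 4.12), so the 3 medians lay inside each other's intervals, while that of promoter peaks was lower at 3.21 (3.11 to 3.29). The width was 318 bp at the median, between 252 and 1538 bp.

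**Figure D1:**
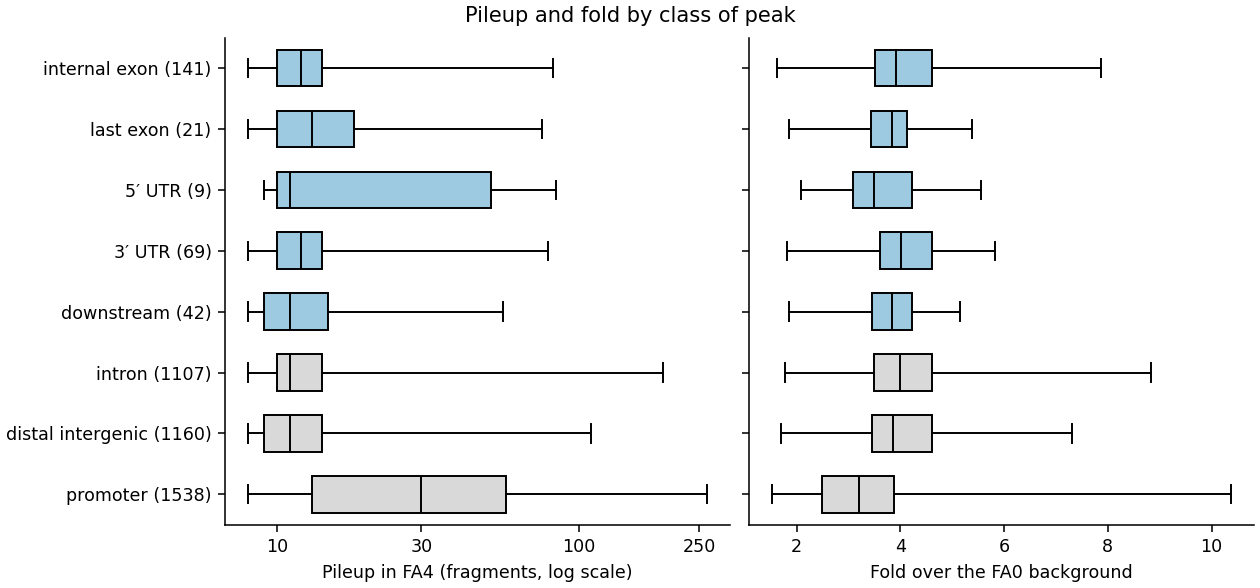
Pileup in FA4 (left, fragments, log scale) and fold over the FA0 background (right) for each kind of peak, with the number of peaks in brackets. Boxes span the quartiles, lines mark the median, and whiskers reach the lowest and highest peak. Exon, UTR and downstream peaks (blue) sat with intron and distal intergenic peaks, and promoter peaks had a higher pileup (median 30) and a lower fold (median 3.21). The 1 peak in a single-exon gene is not drawn.

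A fold of at least 3 was reached by 256 of the 283 peaks (90.5%), where 77.8% of all listed peaks reached it. The share was 92.2% for intron, 90.1% for distal intergenic and 55.8% for promoter peaks. A fold of at least 5 was reached by 27 (9.54%, 6.38 to 13.6%), beside 7.83% of all peaks. A −log10 q of at least 3 was reached by 117 (41.3%, 35.6 to 47.3%), beside 46.7% of all peaks. The kinds differed little among themselves. The median fold was 3.92 in internal exons, 3.84 in last exons, 3.49 in 5′ UTRs, 4.00 in 3′ UTRs and 3.84 downstream, and their intervals overlapped. The 5′ UTR group was the most mixed, with an upper quartile of 51 fragments against 14 in 3′ UTRs, but held 9 peaks only.

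The fold of the small peaks was tied to the pileup. In 97 of the 283 regions (34.3%, 28.8 to 40.1%) the FA0 background stood at 1.60, the lowest value anywhere in the table (within 0.01), and there the fold follows from the pileup alone. A pileup of 8 gave a fold of 3.46 in 14 regions, 9 gave 3.84 in 25, and 10 gave 4.23 in 17. Folds of this group therefore rank fragments of 1 library. Over all listed peaks the share at the lowest background was 36.5%, inside the interval of the 283. It was 48.0% for intron peaks (45.0 to 51.0%), 53.2% for distal intergenic and 16.2% for promoter peaks. Another 148 regions had a background above the lowest and under 5, with a median fold of 3.99. The remaining 38 had a background of 5 or more, with pileups of 18 to 84 and folds of 1.63 to 4.16 (median 2.63).

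**Figure D2:**
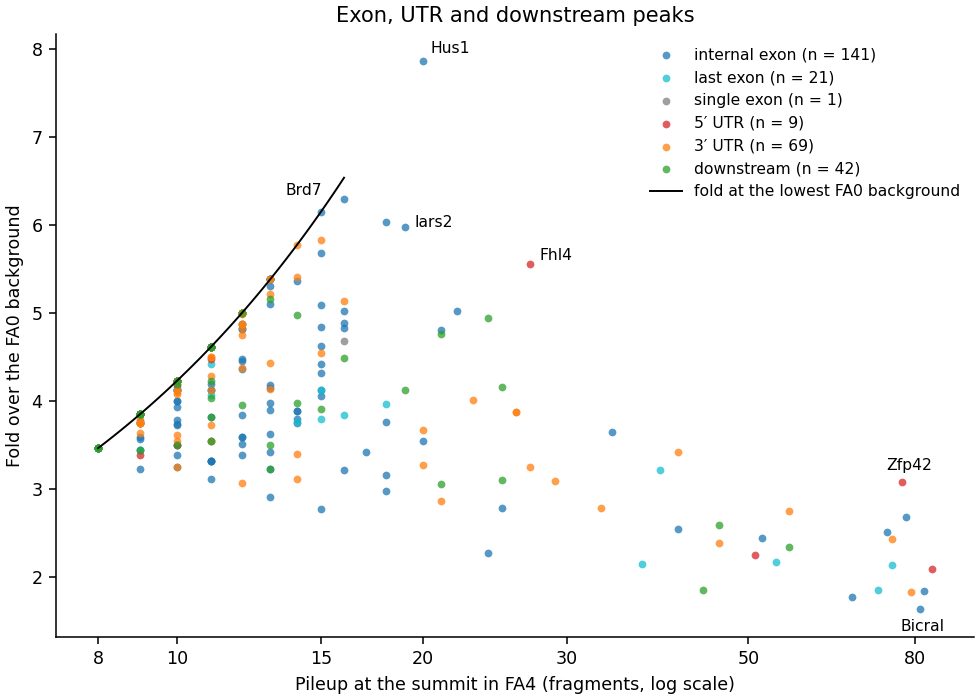
Fold over the FA0 background against the pileup in FA4 (fragments, log scale) for the 283 exon, UTR and downstream peaks, coloured by kind. The black line is the fold fixed by the lowest background. Many small peaks lay on the line, Hus1 (20 fragments, fold 7.86) stood above the rest, and the tall peaks such as those of Zfp42 and Bicral had folds between 1.63 and 3.41.

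The tall regions formed a group of 21 peaks with a pileup of 40 or more (7.42%, 4.65 to 11.1%), beside 18.7% of all peaks, 41.5% of promoter peaks, 3.43% of intron peaks and 5.69% of distal intergenic peaks. Their folds ran from 1.63 to 3.41 with a median of 2.33, over FA0 backgrounds of 11.3 to 49.4. They included peaks of Zfp42, Brd1, Zmynd8 and Bicral, which held 9 of the 21.

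Zfp42 encodes REX1, a zinc finger protein used as a marker of naive pluripotent cells. Of all 283 regions, its 5′ UTR peak at chr8:43300295-43300752 (mm10) had the highest −log10 q, 12.2, with 77 fragments (Poisson interval, 60.8 to 96.2) and a fold of 3.08. A second 5′ UTR peak of Zfp42 at chr8:43301694-43303231 was the tallest and the widest of the 283, with 84 fragments (67.0 to 104.0) and a fold of 2.08. The intervals of the pileups of these peaks overlapped, and their folds differed because the background was 24.3 at the first and 39.9 at the second. Both belonged to a chain of 5 peaks over 12.2 kb, whose tallest peak was the Zfp42 promoter peak with 143 fragments and a fold of 3.49.

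Brd1 encodes a bromodomain scaffold of histone acetyltransferase complexes. Its exon 6 of 13 held a peak at chr15:88711556-88712695 with 78 fragments (61.7 to 97.3), a fold of 2.68 and a −log10 q of 9.30. Exon 7 held one at chr15:88706682-88708157 with 82 fragments (65.2 to 101.8) and a lower fold of 1.84. An intron peak of 99 fragments stood between them. The chain of 4 peaks ended at a promoter-class peak of 31 fragments, which also lay inside the RefSeq gene Brd1. The exon peaks were taller than that peak, but whether it marks the main promoter of Brd1 was not tested.

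Zmynd8 encodes a chromatin reader with a bromodomain. Exon 14 of 22 held a peak at chr2:165807653-165808116, listed under the neighbouring gene Eya2 because that start was nearer, with 74 fragments (58.1 to 92.9) and a fold of 2.50. A second exon peak of Zmynd8 at chr2:165812577-165813114 had 52 fragments (38.8 to 68.2) and a fold of 2.43. With 2 intron peaks between them, of 76 and 64 fragments, they made a chain of 4 peaks within 5.46 kb, and no promoter peak was part of that chain.

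Bicral, a subunit of a SWI/SNF chromatin remodelling complex, was 1 of 2 genes with 3 such peaks. The 3′ UTR peak at chr17:46800455-46800732 had 75 fragments (59.0 to 94.0) and a fold of 2.43. The last-exon peak at chr17:46801334-46801835 had 72 fragments (56.3 to 90.7) and a fold of 1.85, and both were listed under the nearby ribosomal protein-like gene Rpl7l1. The exon peak at chr17:46813442-46814020, named Bicral, had 81 fragments (64.3 to 100.7) and a fold of 1.63, the lowest fold of all 283. Bicral held no other listed peak.

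**Figure D3:**
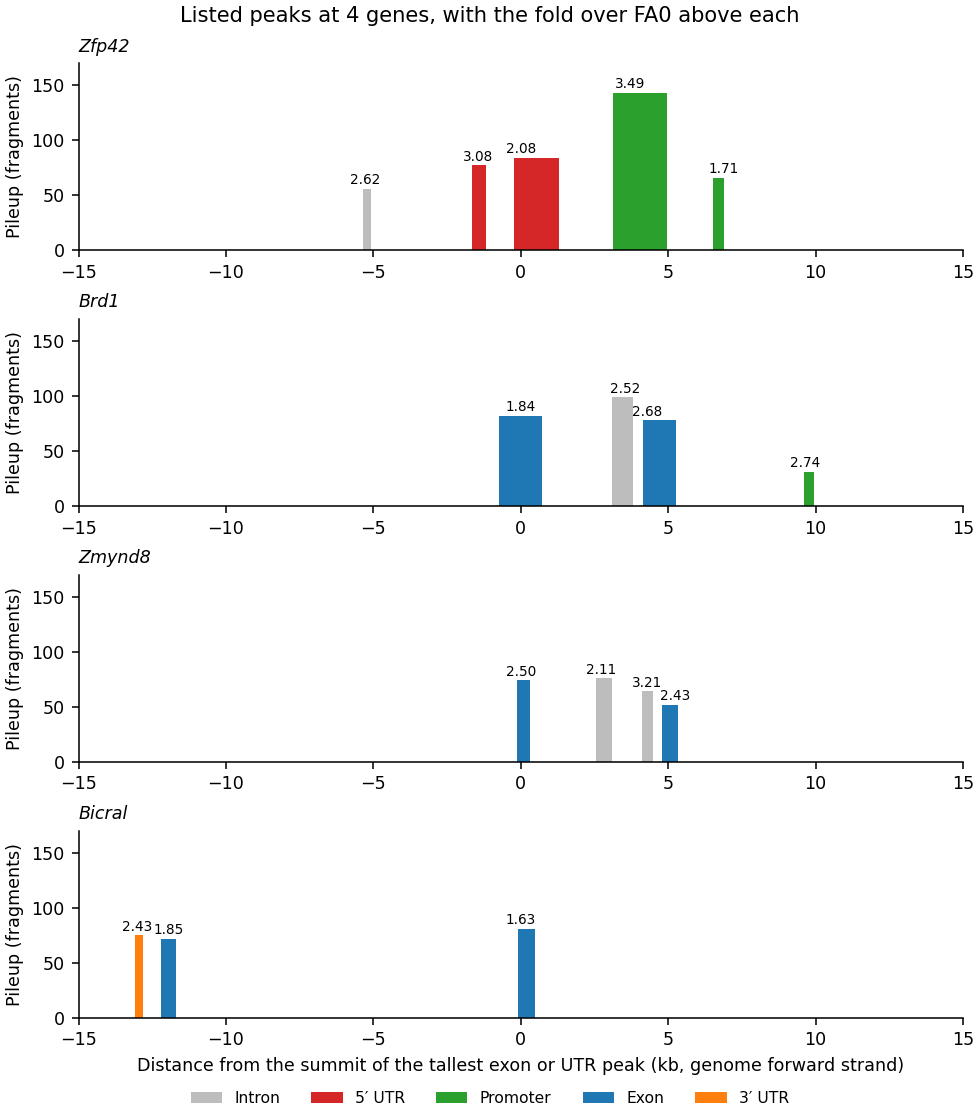
Listed peaks within 15 kb of the tallest exon or UTR peak of Zfp42, Brd1, Zmynd8 and Bicral. The horizontal axis gives the distance from that summit in kb along the forward strand, bar height is the pileup in FA4 (fragments), bar width is the peak width (at least 0.12 kb, so that narrow peaks can be seen), colour is the class, and the fold over FA0 stands above each bar. The Zfp42 promoter peak reached 143 fragments, while the Brd1, Zmynd8 and Bicral exon and UTR peaks stood at 52 to 82 fragments.

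Other tall peaks lay among closely related genes or on unplaced sequence, and whether their reads matched other copies was not tested. In the histone gene cluster on chromosome 13, the 3′ UTR-class peaks listed under H1f3 (56 fragments, fold 2.74) and H3c6 (46 fragments, fold 2.38) were part of a chain of 9 peaks over 41.8 kb. The other 7 were promoter peaks of histone genes, with pileups of 33 to 69. On the unplaced sequence JH584304.1, a downstream and a 3′ UTR-class peak listed under AC149090.1 had 44 and 79 fragments with folds of 1.84 and 1.82. A last-exon peak on chromosome 4 had 75 fragments and a fold of 2.13 and lay inside the RefSeq gene Gm42346, while the nearest start was that of Gm13230. A 5′ UTR-class peak with 51 fragments and a fold of 2.24 was listed under Gm25805, an snRNA gene whose start was 9088 bp away. Among the remaining tall peaks was one in an internal exon of Mybl2, a cell cycle transcription factor (67 fragments, interval 51.9 to 85.1, fold 1.77).

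The highest folds came from smaller peaks inside exons. Hus1, a subunit of the checkpoint clamp that is loaded at damaged DNA, had the highest fold of the 283. Its peak at chr11:8998385-8998761, in exon 7 of 9, had 20 fragments (12.2 to 30.9) over a background of 1.67, a fold of 7.86 and a −log10 q of 10.7. No other listed peak lay within 283128 bp. Brd7, a bromodomain subunit of a SWI/SNF complex, followed with 16 fragments (9.15 to 26.0) and a fold of 6.29 in exon 7 of 17. The Hus1 and Brd7 pileups had overlapping intervals, so their order is within counting error.

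Exon 3 of 30 of Pla2r1, the phospholipase A2 receptor, had 15 fragments and a fold of 6.15 at the lowest background, and was listed under Gm13583. Exon 8 of 10 of Cyp51, the lanosterol demethylase of cholesterol synthesis, had 18 fragments (10.7 to 28.4) and a fold of 6.03, and was listed under Gm43031. Exon 19 of 23 of Iars2, the mitochondrial isoleucyl-tRNA synthetase, had 19 fragments (11.4 to 29.7) and a fold of 5.98. The pileup intervals of these 3 overlapped with that of Hus1.

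In the 3′ UTR class, the highest folds were 5.83 in Aptx, a repair enzyme of abortive DNA ligation ends (15 fragments, listed under Gm12391), and 5.77 in Ms4a1, a B-cell surface protein (14 fragments, lowest background). Dhx8, an RNA helicase of the spliceosome, had 15 fragments and a fold of 5.68 in exon 7 of 23, and 13 fragments and a fold of 2.90 in exon 18. The 5′ UTR of Fhl4, a LIM domain protein, had 27 fragments (17.8 to 39.3), a fold of 5.55 and a −log10 q of 9.29, with no other listed peak within 440221 bp.

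Downstream peaks had folds of up to 5.16. That with the highest −log10 q, 7.03, was listed under Rnf7, a RING subunit of cullin ubiquitin ligases, with 24 fragments (15.4 to 35.7) and a fold of 4.94 at chr9:96485432-96485717. The next, listed under Gm10282, had 21 fragments and a fold of 4.75 and lay 657 bp from the start of a RefSeq gene. The peak downstream of Gata3, a transcription factor of trophoblast and other lineages, had 25 fragments (16.2 to 36.9) and a fold of 4.16, with a distal intergenic peak 1106 bp away. For 28 of the 42 downstream peaks a RefSeq gene end lay within reach, at a median of 1521 bp before the peak, and for 12 of these that gene was also the nearest one by start.

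The remaining last-exon and single-exon regions of highest −log10 q were small, except for Gm12678 with 39 fragments and a fold of 3.21. Pkd2, which encodes polycystin-2, a cation channel, had 13 fragments and a fold of 5.38 at the lowest background, in exon 2 of a transcript of 2 exons. The only single-exon peak, of Gm43668, lay inside Dnajc19, a part of the mitochondrial import motor, with 16 fragments (9.15 to 26.0) and a fold of 4.68.

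The exon peaks lay in transcripts with 15 exons at the median (quartiles 8 and 27, up to 102). Intron peaks lay in transcripts with 12 introns at the median. Transcripts of 20 exons or more held 66 of the 163 (40.5%, 32.9 to 48.4%). Transcripts of 20 introns or more held 24.6% of intron peaks (22.1 to 27.2%). A transcript has fewer introns than exons, so these cuts were not equal. A gene with more exons offers more exonic bases, and the exonic length of each gene was not known from the files. In transcripts of 40 exons or more there were 19 peaks in 18 genes, a group picked out after the values were seen, with pileups of 9 to 22 (median 12) and folds of 3.31 to 5.38 (median 4.23), 8 of them at the lowest background.

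Among them, exon 75 of 102 of Mdn1, an ATPase of ribosome assembly, had 16 fragments and a fold of 5.02, and exon 48 of 62 of Utp20, a factor of small-subunit rRNA processing, had 10 fragments and a fold of 3.72. Dync1h1, the heavy chain of cytoplasmic dynein, had neighbouring peaks in exons 47 and 48 of 77, with 14 fragments and a fold of 3.74 in the former and 22 fragments (13.8 to 33.3), a fold of 5.02 and a −log10 q of 6.57 in the latter. Exon 23 of 58 of Gcn1, which activates a kinase that senses amino acid lack, had 16 fragments and a fold of 4.89. Exon 17 of 58 of Mtor, the growth kinase, had 11 fragments and a fold of 3.54. Exon 52 of 71 of Trrap, a scaffold of histone acetyltransferase complexes, had 14 fragments and a fold of 3.88. Exon 28 of 42 of Prpf8, the core protein of the spliceosome, had 20 fragments and a fold of 3.54, listed under Rilp. Exon 42 of 47 at Nipbl, the loader of cohesin, had 12 fragments and a fold of 5.00, listed under Cplane1. Others were the mucins Muc16 (13 fragments, fold 5.38) and Muc5ac (10 fragments, fold 4.23) and the axonemal dyneins Dnah17 (11 fragments, fold 3.31) and Dnah7b (9 fragments, fold 3.84). At 9 to 14 fragments the intervals are wide, and these genes were not distinguishable from each other.

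Along their genes, exon peaks sat towards the 3′ side. For the 122 exon peaks inside a protein-coding RefSeq gene of known strand, the summit lay at 67.5% of the gene length from its 5′ end (interval of the median, 59.3 to 71.5%), beside 52.8% (48.8 to 56.6%) for 706 intron peaks. The first 25% of the gene length held 8.20% of exon peaks (4.00 to 14.6%) and 22.5% of intron peaks, and the last 25% held 32.8% and 27.1%. The genes of exon peaks were shorter, 51.5 kb at the median against 139 kb, and the part of gene length in this difference was not tested. The promoter class took the regions near annotated starts. No exon peak lay in the first exon of a transcript with 2 exons or more, while 319 of 1107 intron peaks lay in intron 1. The part of where exons and introns lie along a gene was not tested either.

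The 52 placed 3′ UTR peaks had a median position of 97.3%, and 27 of them lay within 2 kb of the end of the RefSeq gene. Another 11 lay more than 10 kb before that end, and the table does not name the transcript that owns the UTR. These included Trim37, a ubiquitin ligase (32.0 kb, 11 fragments, fold 4.28), Edc3, an mRNA decapping factor (22.8 kb, 13 fragments, fold 4.13), Casz1, a zinc finger transcription factor (15.0 kb, 13 fragments, fold 5.38) and Cdkal1, a tRNA-modifying enzyme (211 kb, 9 fragments, fold 3.84). The class name therefore covers places in the middle of a gene as well as its end.

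**Figure D4:**
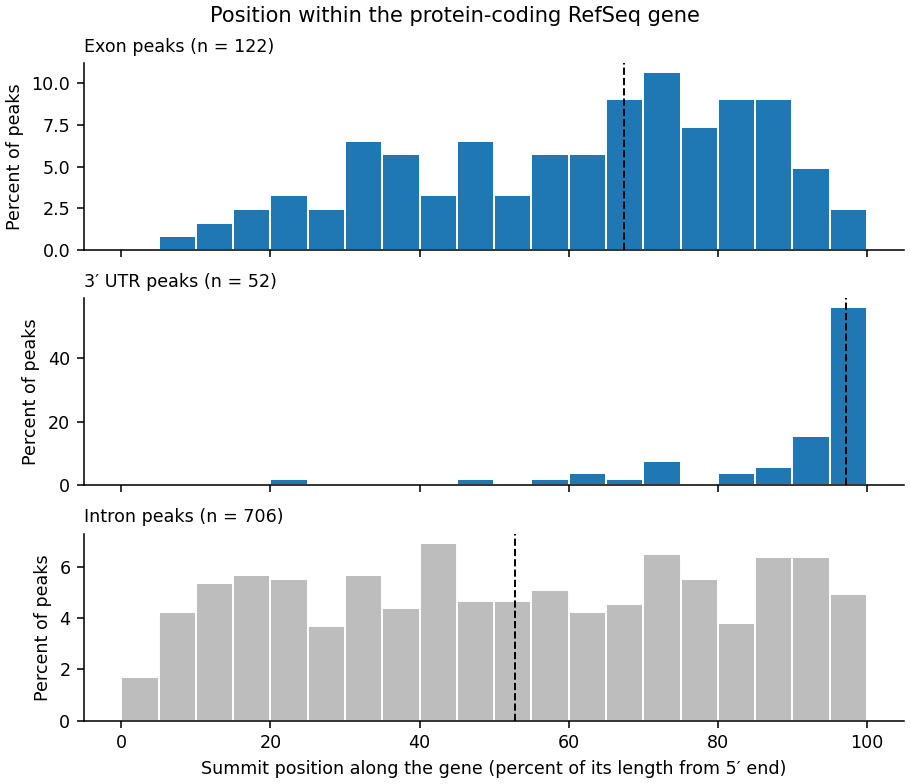
Position of the summit along its protein-coding RefSeq gene, in percent of the gene length from the 5′ end, for 122 exon, 52 3′ UTR and 706 intron peaks, as the percent of peaks in each bin of 5%. Dashed lines mark the medians. Exon peaks were few in the first 25% of the gene (8.20%), 3′ UTR peaks gathered at the gene end (median 97.3%), and intron peaks were spread along the gene (median 52.8%).

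The gene listed for a peak was often not the gene that held it. Of the 283 peaks, 223 lay inside a protein-coding RefSeq gene, in 209 different genes, and 77 of these were listed under another gene whose start was nearer. The gene of the annotated exon was the listed gene for 103 of 163 exon peaks (63.2%, 55.3 to 70.6%) and the gene of the intron for 57.1% of intron peaks (54.1 to 60.0%). The listed gene was protein-coding for 213 of the 283 (75.3%, 69.8 to 80.2%), against 60.4% of all peaks. Of the 70 others, 44 lay inside a protein-coding gene, as for Cyp51 and Pla2r1 above.

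For 164 of the 209 genes, the exon, UTR or downstream peaks were the only listed peaks inside the gene. The same count was not made for genes that held peaks of other classes, so it sets these genes apart from no other group. A promoter peak listed under the gene's own name was present for 25 of the 209 (11.96%, 7.89 to 17.1%), for 68 of 793 genes that held an intron peak (8.58%, 6.72 to 10.7%) and for 4.74% of 21887 protein-coding RefSeq genes. The intervals of the first 2 shares overlapped. The 25 included Ptch1, Zfp42, Brd1, Zmynd8, Arid1a, Hk2, Mybl2, Prpf8, Polr3a and Mdn1. RefSeq holds other starts than the annotation of the table. Against it, 8 of the 283 summits (2.83%, 1.23 to 5.49%) lay within 3 kb of a gene start, at distances of 434 to 2176 bp. The share was 1.81% of intron, 2.84% of distal intergenic and 22.1% of all listed peaks. RefSeq starts were not used for the 9 peaks on chromosome 18 and the 2 on unplaced sequence, which stayed in the 283. Among the 8 were a last-exon peak listed under Notch3 (1493 bp, 9 fragments, fold 3.84) and the 3′ UTR peak of Sipa1l1 (522 bp, 11 fragments, fold 3.54).

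In all, 12 protein-coding RefSeq genes held 2 or more of the 283 peaks, and Bicral and Urb2 held 3. Urb2, a ribosome biogenesis factor, had 2 peaks in exon 4 of 10, with 14 fragments (fold 3.79) and 21 fragments (13.0 to 32.1, fold 4.80), and a 3′ UTR peak listed under Gm45732 with 15 fragments (fold 4.54). They ended a chain of 7 peaks on chromosome 8 over 29.98 kb, which began with 3 intron peaks and a promoter peak of Taf5l, a subunit of a histone acetyltransferase complex. Kmt2a, a histone H3 lysine methyltransferase, had 2 peaks in the 3′ UTR class with 12 fragments (fold 4.37) and 11 fragments (fold 4.61), 6524 bp apart and 21.4 and 27.9 kb before the end of the gene. Ubr4, a ubiquitin ligase, had neighbouring peaks in exons 8 and 9 of 28 with 16 fragments (fold 3.21) and 15 fragments (fold 4.62). Ercc3, a helicase of transcription factor TFIIH, had peaks in exons 8 and 14 of 15 with 9 fragments (fold 3.84) and 13 fragments (fold 5.38). Aspa, which splits N-acetylaspartate, had 16 fragments (fold 3.84) and 24 fragments (fold 2.27), and Xylb, a xylulose kinase, had 18 fragments (fold 3.97) and 21 fragments (fold 2.86). Except at Bicral, Zfp42, Brd1 and Zmynd8, no peak of these genes passed 24 fragments.

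Exon, UTR and downstream peaks lay nearer to other peaks, at the median, than intron and distal intergenic peaks did. Another listed summit lay within 10 kb of 47 of them (16.6%, 12.5 to 21.5%), close to the 16.8% of all listed peaks. By class, it was 10.8% of intron peaks (8.99 to 12.7%), 9.92% of distal intergenic peaks (8.26 to 11.8%) and 26.4% of promoter peaks. The interval of the share of exon, UTR and downstream peaks touched that of intron peaks. The median distance to the nearest other summit was 78.1 kb, against 153 kb for intron, 195 kb for distal intergenic and 52.5 kb for promoter peaks. The neighbour of the 47 was an intron peak in 14, a promoter peak in 13, another exon peak in 10 and a 3′ UTR peak in 5. The 47 had a median pileup of 16 (14 to 25) and 14.9% at the lowest background, beside a median of 11 (11 to 12) and 38.1% for the 236 that stood alone. Pileup and background thus moved with the distance to a neighbour, and their part in the difference between classes was not tested.

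**Figure D5:**
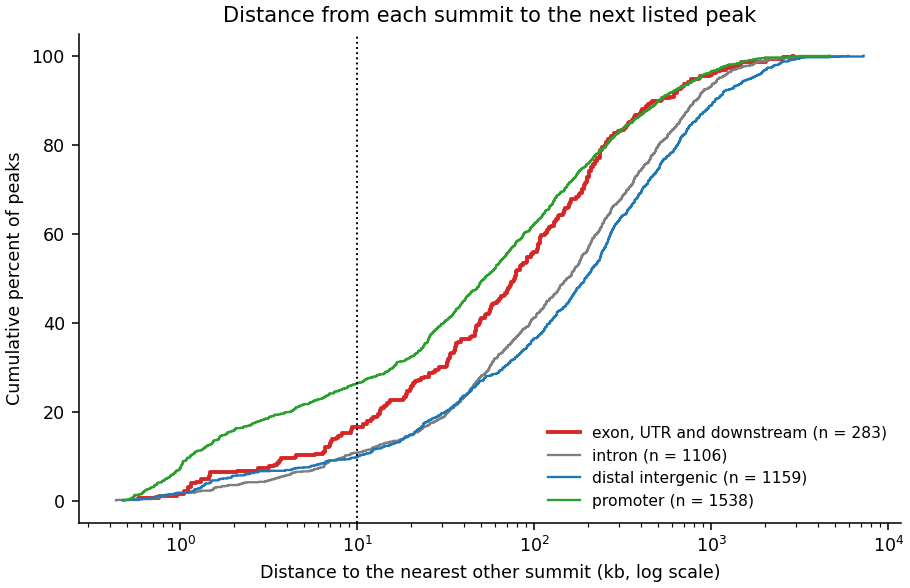
Cumulative percent of peaks by distance from their summit to the nearest other listed summit (kb, log scale), for exon, UTR and downstream (283), intron (1106), distal intergenic (1159) and promoter (1538) peaks with another peak on their sequence. The dotted line marks 10 kb, where the shares were 16.6%, 10.8%, 9.92% and 26.4%.

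Chains of 3 or more peaks with gaps of at most 10 kb held 17 of the 283 (6.01%), in 9 chains, close to the 6.63% of all listed peaks in such chains. Beside those at the histone genes, Urb2, Zfp42, Brd1, Zmynd8, Aspa, Rnf7 and AC149090.1, there was one at Hk2, a hexokinase of glycolysis. There an exon peak of 34 fragments (fold 3.65) lay with 2 promoter-class peaks of 42 and 27 fragments (folds 3.26 and 3.26), so the 3 folds were close.

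By chromosome, the largest numbers of these peaks lay on chromosome 8 (30), chromosome 2 (26) and chromosomes 11 and 4 (24 each). Chromosome 8 had the most peaks of any class, 461, and its exon, UTR and downstream share was 6.51% (4.43 to 9.16%). The share was 9.74% on chromosome 2 (6.46 to 13.9%) and 3.37% on chromosome 6 (1.25 to 7.19%), and these intervals overlapped. The X chromosome had 3 such peaks of 66, and the Y chromosome 0 of 11, which allows a share of up to 28.5%. Over all classes, chromosome 8 held 461 listed peaks, against 324 on chromosome 1 and 267 on chromosome 2. No column held the inputs, so whether the libraries differed over the whole of chromosome 8 was not tested. That limit also holds for its named regions, such as those of Zfp42, Brd7 and Urb2.

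Sonic hedgehog signalling patterns the neural tube, where the receptor PTCH1 holds back SMO, and SUFU binds the GLI transcription factors in the cytoplasm. Of 30 genes of the pathway, 8 had a listed peak of any class and 3 had one in the classes described here, all of them in the 3′ UTR class. The 3 folds had a median of 3.06, the same as that of all 21 peaks of the list, beside 3.88 for the 283. Ptch1 had 33 fragments (22.7 to 46.3), a fold of 2.78 and a −log10 q of 3.52 at chr13:63524908-63525574, 17.2 kb before the gene end. The gene held 8 other peaks, 4 in introns and 4 in the promoter class, with pileups of 21 to 103 and folds of 1.82 to 3.88, so the UTR-class peak lay inside the range of the others. Sufu had 23 fragments (14.6 to 34.5), a fold of 4.00 and a −log10 q of 4.80 at chr19:46487452-46487730, 1203 bp before the gene end, and no other listed peak. Gli2 had 12 fragments (6.20 to 21.0), a fold of 3.06 and a −log10 q of 1.41 at chr1:118853070-118853323, listed under Gm28467 and 19.1 kb before the gene end. Gli2 also held an intron peak of 14 fragments and a fold of 2.95, listed under Mir6346, and these pileups overlapped in their intervals. Both Gli2 peaks lay in a dense stretch with 97 of the 324 listed peaks of chromosome 1. No column held the inputs, so whether the libraries differed over this whole stretch, rather than at Gli2, was not tested.

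Over 13 lists with 343 genes, 12 genes had such a peak, in 7 of the lists. For comparison, 209 of 21887 protein-coding RefSeq genes held such a peak inside the gene. That count leaves out genes with only a downstream peak past their end, such as Gata3. Whether any list differed from this share, including the lists without such a peak, was not tested. In the pluripotency list, 2 of 29 genes had one (13 with any peak), Zfp42 and the LIF receptor Lifr, which held a 3′ UTR-class peak of 13 fragments and a fold of 5.22, listed under Egflam. Among 52 chromatin modifiers and remodelers, 3 had one (16 with any peak). These were Kmt2a, Arid1a, the DNA-binding subunit of a SWI/SNF complex (18 fragments, fold 3.16, listed under Pigv), and Phf19, a Polycomb cofactor (10 fragments, fold 4.23). Of 20 genes of DNA methylation and demethylation, 1 had one (6 with any peak), Mbd1, a reader of methylated CpG, with 14 fragments and a fold of 5.41 in the 3′ UTR class, listed under Cfap53.

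Of 42 neural tube closure genes, 1 had such a peak (9 with any peak), Shroom3, which drives apical constriction, with 9 fragments and a fold of 3.84 at the lowest background. Of 31 genes of folate and one-carbon metabolism and of 30 genes of the ATF4 amino acid response, 0 had one, while 7 and 11 had a peak of another class. Of the lists for other cell types, 1 of 30 spermatid genes had such a peak (7 with any peak), Akap4, a sperm tail protein, with 10 fragments and a fold of 4.23. Of 16 trophoblast genes, 1 had one, Gata3 (3 with any peak). There were 0 of 24 feeder fibroblast genes (2 with any peak), 0 of 21 mesoderm and endoderm genes (1 with any peak), 0 of 24 neural progenitor genes (2 with any peak) and 0 of 14 primed epiblast genes (1 with any peak). The table lists only regions that differed, so a gene without a peak was not shown to lack the mark, and the identity of the cells could not be read from it.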

How the data were processed

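H3K27ac ChIP-seq was carried out on Sv129 mESCs in FA4 and FA0 medium, with 1 IP and 1 input library each. Chromatin was digested enzymatically, and no molecular identifiers were named for the libraries. Per the submitters' processing notes, bcl2fastq 2.17, Bowtie 1.1.2 (to mm10) and MACS2 2.1.0 were used. Nothing in the sources used here gives the settings, the annotation tool or the library depths.

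The authors deposited a table of all peaks and a table of promoter peaks. Each holds the pileup, a signal deposited as fragments at the summit, the −log10 p (not used) and −log10 q deposited from the peak caller, and the fold deposited by the authors, which is (pileup + 1)/(background + 1). The background was computed back from it. The table was read as FA4 over FA0. No column held the inputs. The authors' own fold and q compare 2 libraries and were used as descriptions. None of the 283 regions overlapped a peak of the promoter table, which goes with their choice from classes other than promoter.

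Regions were grouped by their deposited class. Shares have exact Clopper-Pearson intervals, medians have order-statistic intervals and pileups exact Poisson intervals (all 95%). RefSeq genes of the same build gave genes and strands (244 of 270 listed symbols matched). Strands were not available for chromosome 18, and no sequence was read. Python 3.11.15, pandas 2.3.3 and scipy 1.17.1 were used, and the scripts were tested on simulated data. Named genes were the 12 regions with the largest −log10 q, the 8 with the largest fold, the top 3 of each kind by −log10 q, genes with 2 or more regions, and genes in the lists. Of these, 1 region is not reported here. The tallest regions and the longest transcripts were named after their values were seen. The members and the lists were chosen with earlier results of these data known. Alternatives were stricter q and fold thresholds, chromosome subsets, 1 peak per gene and a shorter neighbour distance.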

Additional observations from a re-analysis of the deposited data

How the results depend on the processing

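Over 8 results, 54 alternatives were run, and 44 stayed within the interval of the reported value (for the number of peaks, within 1.5 times). A −log10 q of at least 3 left 117 peaks (6.13% of those listed, median fold 4.61, median pileup 15), and one of at least 2 gave a median fold of 4.23 and a median pileup of 13. A fold of at least 3 raised the share of all peaks to 8.05% and lowered the share within 10 kb of another peak from 16.6% to 11.3%. That share was 10.2% within 5 kb and 3.36% with 1 peak per listed gene, which removes neighbours by construction. Thresholds on q select for pileup and fold, so those medians move by construction too. The alternatives added after seeing the data, protein-coding listed genes only and pileups under 40 only, gave median folds of 3.87 and 4.02. The class from the summit, the overlap with annotated exons and GC content were not run, as no genome or exon annotation was used. No paired analysis was possible because each condition had 1 IP library. Pileups of 8 to 15, where most of these peaks lie, limit what can be ranked.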
